A study of Bos taurus with 47 samples.

Results

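Muscle of newborn heifer calves was compared with muscle of fetuses taken at day 84 of gestation. The comparison used the 16 libraries labelled birth and the 16 labelled fetal, 32 of the 47 libraries in the series, chosen by their time point label alone. Newborns were F1 heifers, and a piece of their Longissimus thoracis was taken straight after calving, before the calf had suckled. Fetuses were of the F2 generation, and their Longissimus dorsi was dissected out of the whole fetus. The F0 females behind both were crossbred Angus heifers that gained either 0.28 kg per day (low gain, LG) or 0.79 kg per day (moderate gain, MG) over the first 84 days of gestation and were kept as a single group afterwards. For newborns these heifers were the dams, and for fetuses they were the granddams. Each stage held 8 LG and 8 MG libraries. Generation, the name of the muscle region and any difference in collection or library preparation change together with stage and cannot be told apart from it. The labels give the sex of the newborns but not of the fetuses, and the part of fetal sex in the results was not tested.

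Longissimus is the long muscle of the back. In cattle its fibres arise before birth in successive waves, from myoblasts that fuse into multinucleated cells, and the number of fibres is largely set by the time of calving. Maturing fibres exchange developmental forms of the contractile proteins for adult forms, gain enzymes of energy metabolism and receive their nerve supply, while the share of dividing precursor cells declines. Genes are listed by Ensembl-style identifier, and no symbol is paired with them in the files. Pathways were therefore not described and the labelled tissue was not checked by marker genes, and the results describe genes by level, direction and spread. In whole-tissue RNA, fewer cells of a type and less RNA per cell cannot be told apart.

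Total counts per library ran from 13308433 to 22671822 at birth and from 15526773 to 21916940 in fetuses, so depth overlapped between the stages. A count of 3 corresponded to between 0.132 and 0.225 CPM (the count scaled to the size of its library) at birth and to between 0.137 and 0.193 CPM in fetuses. The first principal component of log2 CPM carried 75.0% of the variance over the 32 libraries and the second 7.27%. On a scale of the first component on which the fetal mean is 0% and the birth mean 100%, fetal libraries lay between -10.6% and 16.3% and birth libraries between 93.3% and 103%, with no overlap. The birth library nearest to the fetuses was MG 17, and the fetal library nearest to birth was MG 20. These 2 libraries and fetal LG 41 stood apart from their groups on several measures, and results are given without them where that changes a call or a size.

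Most genes differed between the fetal and the newborn muscle. Of 14820 genes tested, 12141 passed an adjusted p of 0.05 in edgeR's quasi-likelihood test (81.9%), 5619 higher at birth (37.9%) and 6522 lower (44%). These directions rest on how the libraries are scaled to each other. TMM, which sets the bulk of genes level, gave scaling factors with a median of 0.737 at birth and 1.38 in fetuses, and the geometric means of the factors differed 1.83-fold between the stages. With TMM, 46.3% of the calls were rises and the median log2 fold change of all tested genes was -0.12. With total counts alone as the scale, 22.7% of the calls were rises, 2734 rises against 9331 falls, and the median was -1.004. DESeq2 size factors and upper-quartile factors gave 45.2% and 45.3% of rises. All changes given below are on the TMM scale unless a share of counts or another scale is named.

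Large changes were mostly falls. Beyond 2-fold, 3771 of the called genes rose and 4768 fell, a ratio of 1.26 falls per rise. Beyond 4-fold the numbers were 1610 and 2909, a ratio of 1.81. Beyond 8-fold they were 737 (4.97% of the tested genes) and 1706 (11.5%), and beyond 64-fold 108 and 274. The fitted fold of a gene with few counts depends on the model's prior count, so the last step is a description. A test against 2-fold as the null (edgeR's glmTreat) was passed by 7079 genes (47.8%), of which 2940 were higher at birth (19.8%) and 4139 lower (27.9%). On the total-count scale those became 1296 and 6541. In 2048 genes (13.8%) every birth library lay above every fetal library, and in 2785 genes (18.8%) every birth library lay below.

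**Figure D1:**
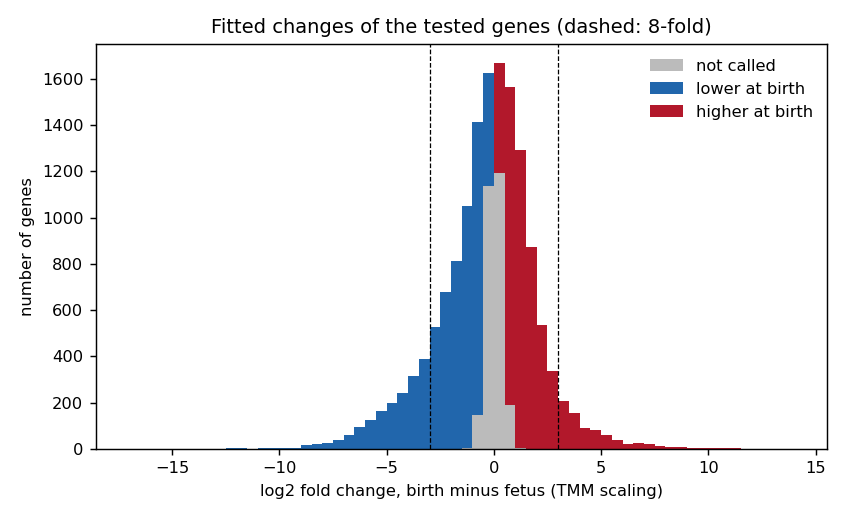
Number of genes by log2 fold change (birth minus fetus, TMM scaling, bins of 0.5) over 14820 tested genes, coloured by direction and by whether the gene passed an adjusted p of 0.05. The left tail is the longer, with 1706 falls beyond 8-fold against 737 rises.

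The direction of change went with the level of the gene. When genes were ranked by their mean log2 CPM over all 32 libraries and divided into 4 groups of 3705, 55.7% of the genes in the lowest group, with mean levels from 0.132 to 1.93 CPM, were called as falling and 23.2% as rising. In the next group 41.6% fell and 37.7% rose, and in the third 41.7% and 42.1%. In the highest group, from 31.9 CPM upwards, 37.1% of genes fell and 48.6% rose. The median log2 fold change went from -1.07 in the lowest group to -0.03, 0.03 and 0.21 in the others, against -0.12 over all genes. Falls beyond 8-fold numbered 958 in the lowest group and 122 in the highest, and rises beyond 8-fold 214 and 242. The filter kept genes with enough counts at 1 stage only, and such genes have a low mean over both stages. Of the 1706 falls beyond 8-fold, 771 passed the filter over birth and slaughter libraries, as did all 737 rises, which were chosen as high at birth. How far the filter shapes the link of level and direction was not tested. With total counts as the scale, falls outnumbered rises in all 4 groups, with 68.6% falls and 12.7% rises in the lowest and 61.2% and 26.4% in the highest, and the medians ran from -1.93 to -0.66 in the same order.

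Counts were concentrated in fewer genes in newborn than in fetal muscle. Birth libraries reached 50% of their counts with 61 to 169 genes (median 77) and fetal libraries with 287 to 554 (median 443.5), while the number of genes with any count was closer, at 16677 ± 354 and 17444 ± 881 (SD, n = 16 each). The 5619 genes called as higher at birth took 31.2% ± 3.34 of a fetal library's counts (SD, n = 16) and 82.3% ± 1.55 of a birth library's (n = 16). The 6522 genes called as lower took 55.8% ± 4.06 and 10.4% ± 1.01. The 737 genes that rose beyond 8-fold held between 2.69% and 5.26% of counts in the fetal libraries, with a median of 3.68%. In the birth libraries the same genes held between 32.9% and 43.0%, with a median of 40.2%. For the 1706 genes that fell beyond 8-fold the range was 14.03% to 22.2% in fetuses, with a median of 18.0%, and 0.377% to 0.652% at birth, with a median of 0.492%. Genes were sorted here by the same libraries that are described, so these shares carry no test. Falls beyond 8-fold outnumbered rises by a ratio of 2.31, and they held more of the counts than the rises in the fetal libraries and less in the birth libraries.

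**Figure D2:**
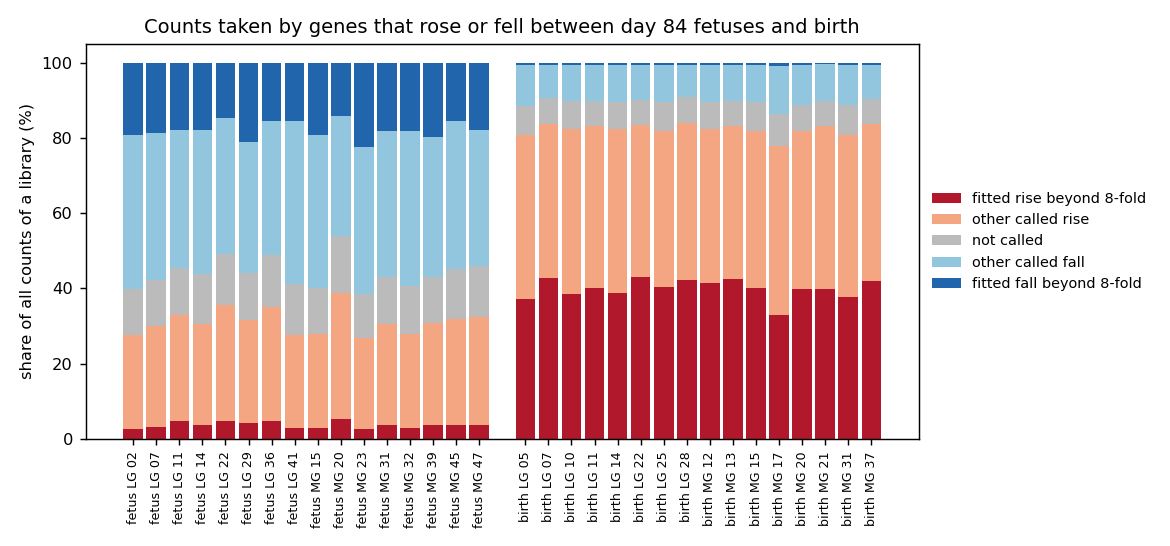
Share of each library's counts (%, stacked bars, 1 bar per library) taken by genes in 5 classes of the birth and fetus comparison. Genes that rose beyond 8-fold hold 2.69% to 5.26% in fetuses and 32.9% to 43.0% at birth, with the lowest birth value in MG 17 and the highest fetal value in MG 20.

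The same was seen among the most abundant genes, from the first to the 1000 highest. The single most abundant gene of a library took 2.28% ± 0.303 of counts in fetuses and 6.14% ± 1.07 at birth (SD, n = 16 each). The 100 most abundant took 31.6% ± 1.78 and 52.7% ± 3.03, and the 1000 most abundant 62.8% ± 2.12 and 78.5% ± 1.92. For the 100 most abundant, fetal libraries ranged from 28.3% to 36.4% and birth libraries from 44.1% to 56.4%, so the stages did not overlap. The lowest birth value belonged to MG 17 and the highest fetal value to LG 41.

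**Figure D3:**
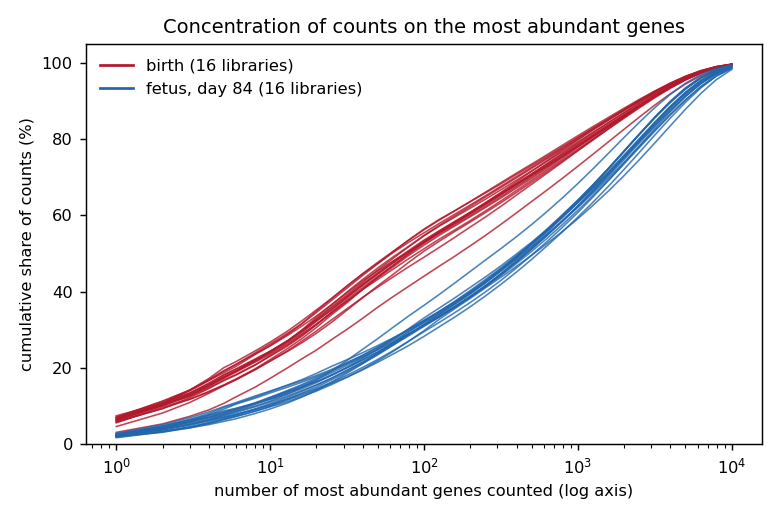
Cumulative share of counts (%) against the number of most abundant genes counted (log axis), 1 line per library, 16 birth and 16 fetal. All birth lines lie above all fetal lines from 1 to 1000 genes, where the means are 78.5% and 62.8%, and some lines cross from 5012 genes onwards.

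All 10 genes with the highest mean share of counts at birth were called as higher there, against 37.9% of all tested genes. Picking genes by their level at a stage favours genes that are higher at that stage, so this count and the one for fetuses below are descriptions. The leading one took 6.05% ± 1.35 of birth counts and 0.557% ± 0.187 of fetal counts (SD, n = 16 each). Its log2 difference on the TMM scale was 4.34 (SE 0.22, edgeR adjusted p = 6.14e-19). Shares are not TMM-scaled, so the log2 differences are larger than the shares alone would give. The seventh took 1.32% ± 0.107 at birth and 0.0553% ± 0.0134 in fetuses, which at 5.44 (SE 0.16) was the largest change of the 10. The eighth changed least and was unsteady among fetuses, at 1.30% ± 0.327 against 1.13% ± 0.757, at a log2 difference of 1.02 (SE 0.34, adjusted p = 0.00687). Its share of counts was thus nearly level, and its call rests largely on the TMM scale, which shifts the stages by 0.875 log2 units.

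Fetal muscle had a largely different leading set, of which 6 were lower at birth, 3 higher and 1 not called, against 44% lower and 37.9% higher over all tested genes. The second and the eighth of the birth ranking, both higher at birth, were also the third and the fourth of the fetal ranking. The gene with the highest mean share in fetuses fell from 2.11% ± 0.385 of counts to 0.140% ± 0.033, at a log2 difference of -3.07 (SE 0.14, adjusted p = 5.01e-20). The fifth and the seventh of that ranking fell furthest, from 1.10% ± 0.608 to 0.00975% ± 0.0037 and from 0.934% ± 0.574 to 0.00889% ± 0.00382, at log2 differences of -5.94 (SE 0.29) and -5.84 (SE 0.34). The second took 1.46% ± 0.277 of fetal and 0.851% ± 0.294 of birth counts, yet its log2 fold change on the TMM scale was 0.07 (SE 0.16, adjusted p = 0.69). For this gene the share of counts was smaller at birth while the TMM-scaled level was not called, because the scales of the stages differ by 1.83-fold.

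ENSBTAG00000020080 had the largest rise among well-detected genes, meaning those whose log2 CPM averaged 3 or more over the 32 libraries. In fetuses its level ran from 0.561 to 2.52 CPM with a median of 1.31, and at birth from 3272 to 7460 CPM with a median of 5421. No fetal library came near a birth library, and the order of the stages was the same in LG and MG, with fetal medians of 1.53 and 1.22 CPM and birth medians of 5316 and 5475 CPM. The log2 fold change was 11.99 (SE 0.23, edgeR adjusted p = 1.71e-29).

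ENSBTAG00000018204 rose by nearly as much but differed widely between libraries at both stages. Its fetal level ran from 0.0388 to 19.04 CPM with a median of 0.727, and its birth level from 1201 to 21421 CPM with a median of 6963. The lowest birth library thus still lay above the highest fetal library, MG 20. Fetal libraries held 1 to 577 counts of this gene each, so the lowest fetal levels are not resolved at this depth. The log2 fold change was 11.47 (SE 0.86, edgeR adjusted p = 2.61e-14) and became 12.36 without fetal MG 20. Within gain groups it was 12.23 (SE 1.07) in LG and 10.79 (SE 1.14) in MG, and the test of that difference did not pass (1.53 on the log2 scale, adjusted p = 1). With limma voom, which fits mean log values, it was 12.43.

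ENSBTAG00000021916 fell the furthest of the well-detected genes. It was among the abundant genes of the fetus, from 1214 to 5224 CPM with a median of 2210, and lay between 0.160 and 1.09 CPM at birth with a median of 0.500. The highest fetal level, in LG 41, was 5224 CPM, while the other 7 fetal LG libraries lay between 1840 and 2740 CPM. Birth libraries held 2 to 15 counts each, 130 in all, against 1031204 in fetuses. The log2 fold change was -12.14 (SE 0.29, edgeR adjusted p = 5.72e-27) and -12.06 without fetal LG 41.

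ENSBTAG00000013155 fell as well, with a wide spread in fetuses. Its fetal level ran from 27.7 to 636 CPM with a median of 194, and its birth level from 0.187 to 1.21 CPM with a median of 0.452. All 16 fetal libraries were above all 16 birth libraries. The log2 fold change was -8.68 (SE 0.41, edgeR adjusted p = 8.60e-20). It was -7.77 in the fit over 14 libraries that blocks on the library number, and -7.99 in the same libraries unblocked.

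**Figure D4:**
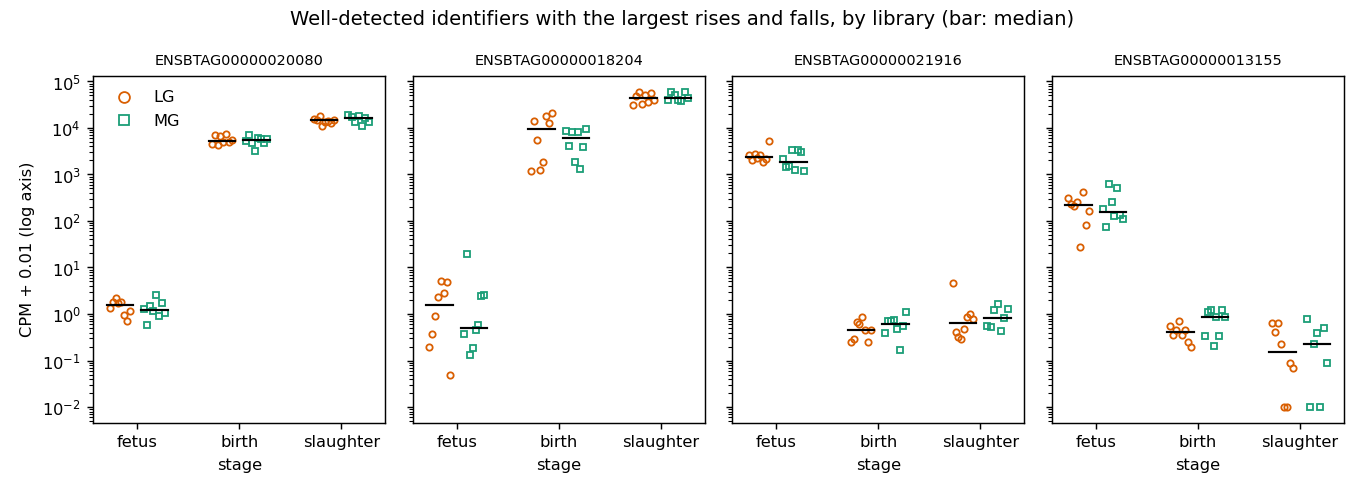
Level (CPM + 0.01, log axis) of the 2 identifiers with the largest rises and the 2 with the largest falls among genes whose log2 CPM averaged 3 or more, by stage, with 1 point per library (circles LG, squares MG) and a bar at the median of each group. Fetal and birth libraries do not overlap in any of the 4 panels, and slaughter libraries of the same identifiers are shown beside them.

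Later values of these 4 genes, from 15 libraries of F1 heifers at slaughter, are set beside them for scale. Both comparisons use the birth libraries. Some library numbers occur at both birth and slaughter, and the fit did not pair them. Of all genes tested from birth to slaughter, 70.2% were called. ENSBTAG00000020080 had a median of 15139 CPM at slaughter, 1.45 log2 units above birth (SE 0.10, edgeR adjusted p = 3.86e-14). ENSBTAG00000018204 had a median of 43558 CPM with a lowest library of 30428, and had risen by 2.64 from birth (SE 0.35, edgeR adjusted p = 1.04e-07). Its highest birth library, at 21421 CPM, stayed below all slaughter libraries. ENSBTAG00000021916 had a median of 0.782 CPM at slaughter and ENSBTAG00000013155 of 0.215 CPM, with changes from birth of 0.92 (SE 0.34, adjusted p = 0.0164) and -1.07 (SE 0.44, adjusted p = 0.0303). Both changes rest on few counts, 224 and 57 over the 15 slaughter libraries. Slaughter LG 02 alone held 58 of the 224, at 4.53 CPM, and a fit without it was not made. ENSBTAG00000013155 had a count in 11 of the 15 libraries. In these 2 genes the later step was small beside the difference between fetuses and newborns.

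The same scale can be set for the larger groups. The 737 genes fitted more than 8-fold higher at birth than in fetuses had a median level of 1.86 CPM in the fetal libraries. Their medians were 36.6 CPM in newborns and 33.2 CPM in grown heifers. The 1706 that fell beyond 8-fold had medians of 6.03, 0.226 and 0.346 CPM. Over all 14820 genes the medians were 8.57, 8.11 and 8.38 CPM. Both groups were chosen by their birth values, so the levels are set side by side only and the later step carries no test.

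Few of the genes seen at 1 stage only were detected throughout that stage. Of the 27607 identifiers, 4879 had no count in any of the 32 libraries, 1583 had counts in fetuses only and 998 at birth only. Of these, 38 and 11 had a count in all 16 libraries of their stage. Genes with at least 1 CPM in all 16 fetuses and 0 counts in all 16 birth libraries numbered 6. Their mean fetal levels ran from 4.06 to 638 CPM with a median of 10.4, so that newborns were at least 391-fold to at least 63072-fold lower when 3 counts over all 16 libraries stand in for 0. In the other direction there were 2 such genes, with mean birth levels of 3.21 and 5.75 CPM, at least 314-fold and at least 567-fold higher at birth. When up to 3 counts over the 16 libraries of the lower stage were allowed, the numbers became 24 and 2. Levels and folds in this paragraph are scaled by total counts and not by TMM, and the 2 scales differ by 1.83-fold between the stages. On the TMM scale the folds lower at birth would be smaller and those higher at birth larger.

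Steady genes were the minority. A 95% limma voom interval of the birth-to-fetus ratio lay within 1.2-fold in either direction for 94 genes (0.634%), within 1.5-fold for 1518 (10.2%) and within 2-fold for 3820 (25.8%). Of the 2679 genes that were not called, 1157 had an interval within 1.5-fold. For the other 1522 the interval reached beyond 1.5-fold, so that a change of that size could not be set aside.

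The LG and MG libraries share no library and so give 2 separate measurements of the stage change. With 8 newborns against 8 fetuses each, edgeR called 11382 genes in LG (76.8%) and 10498 in MG (70.8%). Of these, 9998 were called in both with the same direction, which is 87.8% of the LG calls and 95.2% of the MG calls, and 1 gene was called in both with opposite directions. Across the 14820 genes the 2 sets of log2 fold changes had a Pearson r of 0.976 and a Spearman rho of 0.979. Genes are not independent replicates, and level and stage-wide batch differences are common to both sets. The median absolute difference between the LG and MG values was 0.22 on the log2 scale, and 94.4% of genes lay within 1 log2 unit.

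**Figure D5:**
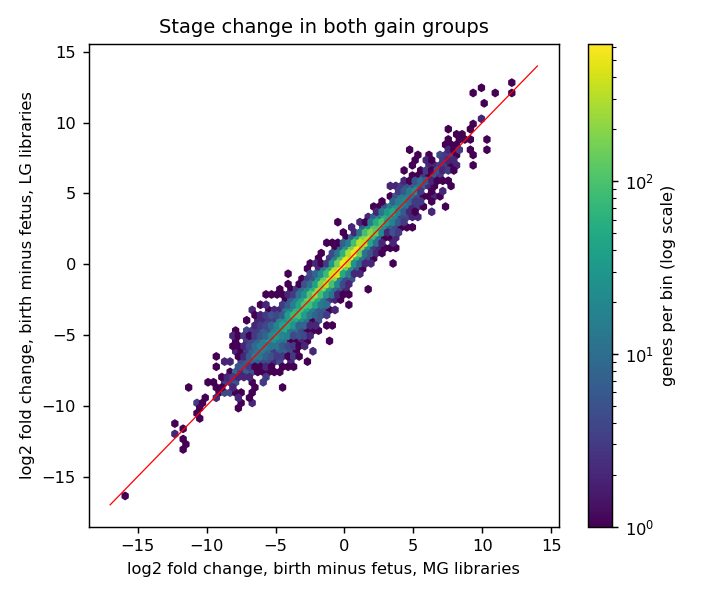
Log2 fold change from fetus to birth in LG libraries against that in MG libraries, with genes binned in hexagons (colour: genes per bin, log scale) and the line of equal change in red. The cloud follows the line, with 94.4% of 14820 genes within 1 log2 unit between the 2 gain groups.

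Whether the stage change itself differed by gain was tested as an interaction in the same model. In edgeR 0 of 14820 genes passed (0%), with 355 at an unadjusted p under 0.05. DESeq2 also called 0, with 396 at an unadjusted p under 0.05, and limma voom called 0, with 201. For each method the share of genes at an unadjusted p under 0.05 was itself below 0.05, the share that chance alone would give. A p that misses the threshold does not show that the changes are equal in LG and MG.

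Fetal libraries varied more among themselves than birth libraries did, and this held for genes of every direction. Over the 7831 well-detected genes, the median SD within gain groups was 0.47 log2 CPM in fetuses and 0.26 at birth, and the fetal SD was the larger in 6835 of them (87.3%). Genes that rose had a median SD of 0.51 in fetuses and 0.26 at birth, and genes that fell 0.44 and 0.26. Genes that were not called had 0.47 and 0.24, with the larger SD in fetuses for 90.3% of them. Among the 385 genes of this level that fell beyond 8-fold, the medians were closer, at 0.48 and 0.40, and 68.3% had the larger SD in fetuses. For the 387 that rose beyond 8-fold the medians were 0.67 and 0.38. Without birth MG 17, fetal MG 20 and fetal LG 41, the medians over the 7831 genes were 0.39 in fetuses and 0.24 at birth, with the larger SD in fetuses for 81.5%. These shares carry no test, and counting error, which is larger where a gene is low, was not removed from the SDs.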

How the data were processed

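Muscle RNA was prepared as non-directional polyA libraries and sequenced as paired reads, per the labels' protocols. The deposited values are unnormalised read counts per gene, 1 table per stage and 27607 identifiers in each. The submitters' processing notes name STAR 2.7.3a, edgeR 3.24.3, FastQC 0.11.8 and MultiQC 1.9 without roles. For the build, the annotation and the counter the sources used here give no name. Reads from genes that overlap on opposite strands are pooled by such a kit. The header of each table has no identifier cell, and its first name was read as that of the first count column.

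The birth and fetal counts were joined by identifier and analysed in R 4.3.3. The filter was filterByExpr, the scaling TMM and the test the robust quasi-likelihood test, all of edgeR 4.0.16, with calls at a Benjamini-Hochberg adjusted p under 0.05. The model held 4 groups of stage and gain. Birth against fetus was the mean of the LG and MG groups, a change beyond 2-fold was tested with glmTreat, and the interaction and slaughter against birth were tested alike. The SE is the fold change divided by the root of the test's F. Log2 CPM used a prior count of 1, CPM of named genes come from 1 TMM scaling of 47 libraries, and medians at 3 stages use log2(CPM + 1). Intervals are 95% from limma 3.58.1 voom. DESeq2 1.42.0, limma voom, other scalings, filters, gain groups, left-out libraries and a block on the library number were tried as alternatives.

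The reference gene table gave a symbol to 0 identifiers. Planned gene lists and markers were therefore not run, and the genes named are, in each direction, the 2 called genes of largest change whose log2 CPM averaged 3 or more. Genes described by rank were chosen after their values were seen. The comparison and lists were chosen with earlier results of these data known. Of 112 pairs of libraries within groups, none matched within sampling noise (chi-square of 25.2 or more per degree of freedom). As the labels do not state separate animals, p-values reflect only how these libraries vary, which may in part be technical, and intervals and floors on counts cover counting error only.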

Additional observations from a re-analysis of the deposited data

Results flagged for a closer look

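In 44 groups of 8 values, 9 held a library far from the other 7. Chance gives about 1 in 20 for unrelated groups. These measures overlap and come from the same libraries, so the 9 are a description. Whether they exceed chance cannot be judged from them. Birth MG 17 accounted for 4 of the 9. It had 17680 genes with a count, against at most 16941 in the other birth MG libraries, and needed 169 genes to reach 50% of its counts, against at most 90. Its 10 most abundant genes took 17.3% of counts, against at least 23.04%, and it lay at 93.3% of the way from fetus to birth on the first component, against at least 97.9%. Fetal MG 20 gave 5.26% of its counts to the genes that rose beyond 8-fold, against at most 3.84% in the other fetal MG libraries, and had 19.04 CPM of ENSBTAG00000018204, against at most 2.58. Fetal LG 41 reached 50% of its counts with 287 genes, against at least 403 in the other fetal LG libraries, and had 5224 CPM of ENSBTAG00000021916, against at most 2740. Birth LG 25 gave 0.625% of its counts to the genes that fell beyond 8-fold, against at most 0.495% in the other birth LG libraries.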

How the results depend on the processing

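The number of called genes, 12141 of 14820 tested, ranged over 14 alternatives. The lowest was 9681 of 13612 (MG libraries alone, with their own filter) and the highest 14943 of 22728 (no filter). The number of tested genes differs between settings, so the counts are not directly comparable. The 4 named genes passed with the same direction in each alternative. Total counts as the scale moved the split: 2734 rises (22.7% of calls), 409 rises and 2709 falls beyond 8-fold, 1296 rises and 6541 falls in the test beyond 2-fold, and a median log2 fold change of -1.004. By construction this setting leaves out the 1.83-fold gap in scaling factors. Without a filter on low counts, rises beyond 8-fold became 1108, with 22728 genes tested. Leaving out birth MG 17, fetal MG 20 or fetal LG 41 gave 12176 to 12610 calls. The interaction called 0 genes in the 10 alternatives in which it was fitted, with 201 to 1006 at an unadjusted p under 0.05. The 201 came from limma voom over 14820 genes and the 1006 from the fit without a filter, over 22728. The 7 library numbers found at both stages are always in the same gain group, and the labels do not say what they mark. Deviations of same-numbered libraries correlated between -0.234 and 0.13, over 0.1 in 2 of 7 pairs. Such low correlations cannot show that the numbers mark unrelated animals. Every number at slaughter also recurs among the fetal libraries, and some recur at birth, in the same gain group. As the meaning of the numbers is not stated, the main fits were not paired, and relatedness between stages was not tested. With the number as a block, the 14 libraries gave 10587 calls of 15040 genes tested and a median of -0.17. Without the block they gave 10336 and -0.28. Genes under about 0.2 CPM are beyond what this depth resolves in a single library.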

Other observations

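On the first component of the 32 libraries, which separates the stages, LG newborns had a higher mean position than MG newborns. This was noticed after the values were seen and tested on the same values, so the p-values below describe the pattern that prompted them and are no independent evidence of a difference. On the scale from 0% (fetal mean) to 100% (birth mean), LG newborns lay at 101.6% ± 1.56 (SD, n = 8), from 98.8% to 103%, and MG newborns at 98.4% ± 2.46 (n = 8), from 93.3% to 101%. The difference was 3.22 points (two-sided exact permutation test over 12870 arrangements, p = 0.00451, Benjamini-Hochberg adjusted over both stages 0.00902), and the groups overlapped. Without birth MG 17 it was 2.48 points (exact permutation p = 0.00932), and with upper-quartile factors 3.21 points (exact permutation p = 0.00466). With total counts as the scale it was 3.29 points and did not pass (exact permutation p = 0.0578). In fetuses the LG and MG means differed by 0.339 points against SDs of 7.38 and 8.64 (exact permutation p = 0.933). Without fetal MG 20 the fetal difference was 2.84 points (exact permutation p = 0.43), and without fetal LG 41 it was 1.67 points (exact permutation p = 0.672). Fetal positions spread more widely, so a fetal difference as large as that of the newborns cannot be set aside. The whole distance between LG and MG newborns is small beside the distance between stages.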
